A study of Rattus norvegicus with 6 samples.

Results

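Interferon response genes are the genes that cells switch on after type I or type II interferon binds its receptor at the cell surface. They were followed here in cultured rat spinal cord astrocytes as a list of 35 genes, chosen by name: sensors of viral RNA, transcription factors, antiviral effectors, the ISG15 pathway, interferon-inducible GTPases, immunoproteasome subunits, ADP-ribosyltransferases and other induced genes. The list was chosen with earlier results of these data known, so its counts beside those of all probe sets are a description. Of the 35 genes, 32 were matched by symbol to 39 probe sets of the 31042 on the Affymetrix Rat Genome 230 2.0 array that are not controls, which name 14217 genes by a single symbol. Each gene was read by its brightest probe set, and 27 genes were above a filter on dim signals, a mean signal of 66.7. Rigi, Gbp5 and Xaf1 were not matched and are not analysed here.

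The study compared primary astrocytes from nontransgenic rats (NonTG) with those from transgenic rats that carry a mutant human superoxide dismutase 1 linked to amyotrophic lateral sclerosis (hSOD1G93A). Confluent monolayers of both genotypes were kept in supplemented L15 medium for 24 h, with no treatment named, before 5 ug of total RNA was labelled for each array. There were 3 arrays per genotype, whose titles carry the letters A, B and C. What a letter marks, whether the arrays of a genotype hold separate cultures or animals, the age of the animals and the promoter of the transgene are not given in the sources used here, so a p-value here covers no more than the spread among the 6 samples, and that spread may be technical. The rat Sod1 probe set does not check the human transgene.

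Type I interferons bind the Ifnar1 and Ifnar2 receptor and act through the kinases Jak1 and Tyk2 on a complex that holds Stat2 and Irf9 and binds the interferon-stimulated response element (ISRE). Interferon gamma binds Ifngr1 and Ifngr2 and acts through Jak1 and Jak2 on genes with a gamma-activated site (GAS). Astrocytes respond to both types, and low interferon signalling keeps a basal level of many of these genes in cells that are not infected.

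What the list shares in sequence was read from the RefSeq promoters of the rat assembly GRCr8, in the 250 bases before each gene's start. An entry was matched for 29 of the 35 members, which leaves Ifit1, Ifit2, Isg15, Mx2, Rigi and Usp18 without one. An ISRE core, GAAANNGAAA on either strand, was in 18 of the 29 members (62.1%) and in 3.41% of all 33469 promoters. The GAS motif TTCNNNGAA, which reads the same on both strands, was in 11 of the 29 members (37.9%) and in 7.67% of all promoters. Both motifs were in 7 members and neither was in 7, namely Stat2, Mx1, Oasl, Cmpk2, Herc6, Psmb9 and Parp9. Matches can share bases: in Bst2, Oas1a and Oas1b a pair of ISRE matches overlap, and in Bst2 the GAS match overlaps an ISRE match. A match is a description of letters and not a measured binding site.

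The windows below show members of different roles on the strand of the gene, 5′ to 3′, with the matched motif in capitals. Ifi27 is shown because it was 1 of the members that differed between the letters, and both of its matches are printed. The matches begin 84 and 169 bases before its start, and their printed windows lie at chr6:128355208-128355257 and chr6:128355123-128355172 on the plus strand. The other ISRE windows are those of the transcription factor Irf7 (chr1:205800063-205800112, minus strand), the antiviral effectors Oas1a (chr12:41330411-41330460, plus), Bst2 (chr16:18255063-18255112, minus), Rsad2 (chr6:48788238-48788287, minus) and Ifit3 (chr1:241527262-241527311, plus), and the immunoproteasome subunit Psmb10 (chr19:50743336-50743385, minus). GAS windows are shown for the transcription factors Irf1 (chr10:38417773-38417821, plus) and Irf9 (chr15:33065717-33065765, plus).
Ifi27 ISRE, near: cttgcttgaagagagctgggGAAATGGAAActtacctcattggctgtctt
Ifi27 ISRE, far: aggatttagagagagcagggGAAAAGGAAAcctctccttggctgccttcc
Irf7 ISRE: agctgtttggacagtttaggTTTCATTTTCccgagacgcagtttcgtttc
Oas1a ISRE: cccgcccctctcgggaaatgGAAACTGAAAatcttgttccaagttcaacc
Bst2 ISRE: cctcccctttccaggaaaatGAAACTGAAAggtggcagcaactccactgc
Rsad2 ISRE: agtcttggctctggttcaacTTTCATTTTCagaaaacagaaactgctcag
Ifit3 ISRE: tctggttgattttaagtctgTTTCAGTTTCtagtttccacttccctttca
Psmb10 ISRE: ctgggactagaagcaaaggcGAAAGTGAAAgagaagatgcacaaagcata
Irf1 GAS: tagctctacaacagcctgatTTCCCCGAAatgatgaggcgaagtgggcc
Irf9 GAS: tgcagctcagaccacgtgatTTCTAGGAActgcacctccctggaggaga

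**Figure D1:**
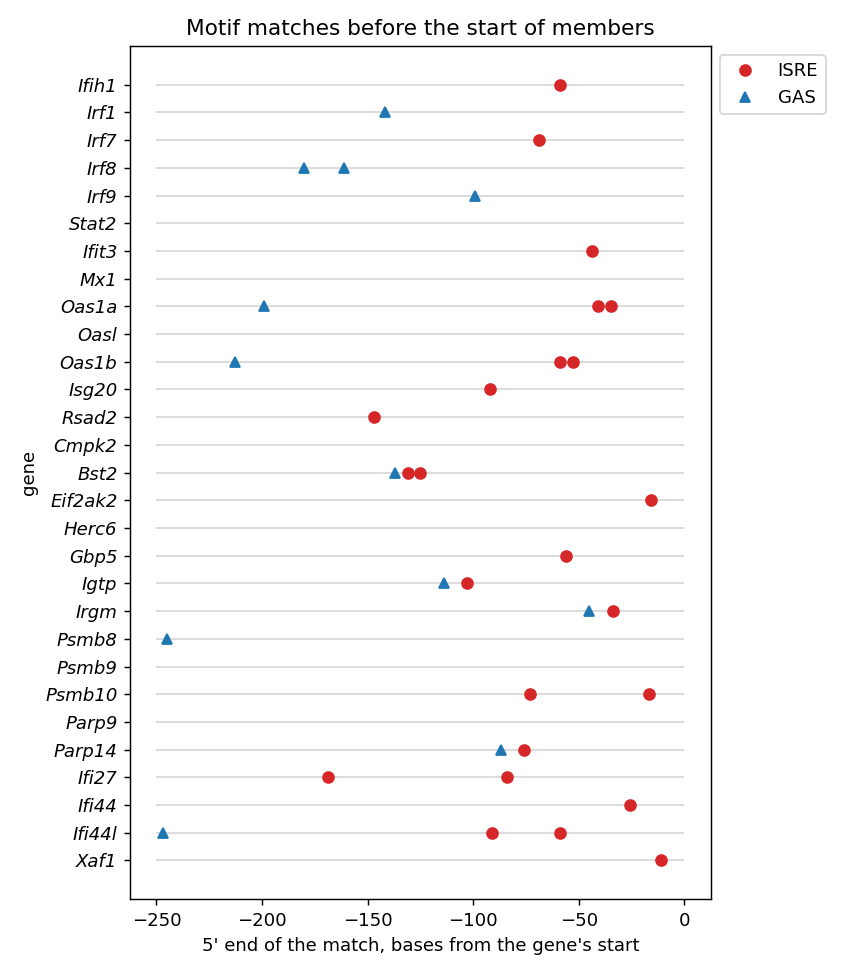
Position of the ISRE matches (red circles) and GAS matches (blue triangles) in the 250 bases before the start of the 29 members with a promoter entry; the x axis gives the distance of the 5′ end of a match from the start, in bases. Of these members, 18 have a red circle and 11 a blue triangle, and 7 have neither.

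The first comparison asked whether mutant SOD1 goes with a different level of these genes. No interferon response gene differed between hSOD1G93A and NonTG past the test: 0 of the 27 passed an adjusted p of 0.05 (limma, two-sided, Benjamini-Hochberg over all 18625 probe sets above the filter), against a background of 0% of all probe sets. At an unadjusted p under 0.05 there were also 0 members, against 474 of all probe sets (2.54%), and the smallest unadjusted p was 0.148, for Rsad2. The 3 arrays of each genotype overlapped for all 27 members, where 7.51% of all probe sets had groups that do not overlap. The difference, hSOD1G93A minus NonTG, was below 0 for 20 members and above 0 for 7, where 48% of all probe sets were below 0. Its median was -0.13 on the log2 scale, with a range from -0.26 (Psmb8) to 0.89 (Oasl), and the median over all probe sets was 0.0070. This median turned to 0.0064 without array NonTG B and was -0.053 without array hSOD1G93A A. On letter A alone it was -0.16, on B -0.27 and on C 0.064. Changes of more than 2-fold either way were outside the 95% confidence interval for 23 members, and those of more than 1.5-fold for 11. Over all 18625 probe sets these counts were 16907 and 11853, which are larger shares than among the 27 members.

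**Figure D2:**
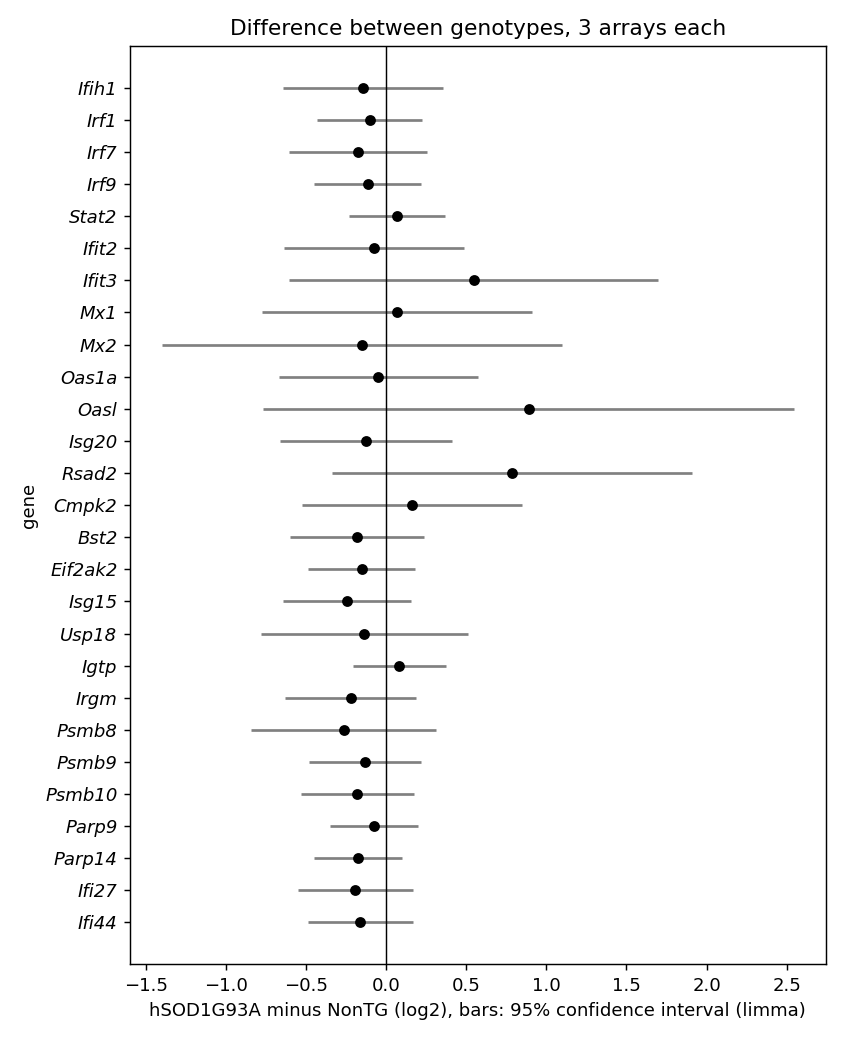
Difference hSOD1G93A minus NonTG of the 27 members above the dim filter (points, log2) with the 95% confidence interval of limma (bars), 3 arrays in each genotype. Every interval crosses 0; Oasl, Rsad2, Ifit3 and Mx2 have the widest ones.

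The second comparison used the letters, which are shared by the genotypes. For every letter, both arrays were set against those of the other letters in a model that also holds genotype (limma F test of the letters). Mx2 and Ifi27 passed this test at an adjusted p of 0.05, 2 of 27 members against 1.05% of all probe sets. The count was 1 with no dim filter or with the mean over probe sets of a gene. Leaving out an array leaves its letter with 1 array, so no counts of this test are given for those fits. At an unadjusted p under 0.05 there were 11 of 27 members, against 15.6% of all probe sets. Letter B was above letter A for 26 of the 27 members, the exception being Isg20 at -0.18, and it was above letter C for 24. Of all 18625 probe sets, B was above A for 9631 and above C for 9394, and C was above A for 9575. The median difference B minus A was 0.34 on the log2 scale, 0.42 within NonTG and 0.34 within hSOD1G93A, and 0.011 over all probe sets. It was 0.32 over all 32 members on the array, with no filter, and 0.26 over the 19 members above a stricter filter. Letter C was above A for 18 members, with a median of 0.15 that was -0.069 within NonTG and 0.32 within hSOD1G93A, a difference between genotypes that was not tested. Leaving out each array in turn gave medians of B minus A from 0.25 (without NonTG B) to 0.53 (without hSOD1G93A B).

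Of the letter results, only the counts of probe sets and members at an adjusted p of 0.05 were planned. The differences between letters given above and the counts below were chosen after the values were seen. The A arrays were the lowest of both genotypes for 9 members, against 17.4% of all probe sets, and the B arrays were the highest of both for 13, against 16.2%. B was above A by 0.5 or more, on the log2 scale, for 10 members, against 6.12% of all probe sets. The median member, after each gene was centred on its mean, lay at -0.049, 0.37 and -0.14 in NonTG A, B and C, and at -0.19, 0.13 and 0.012 in hSOD1G93A A, B and C. Both B arrays were thus above the other arrays, while the lowest array was C in NonTG and A in hSOD1G93A.

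**Figure D3:**
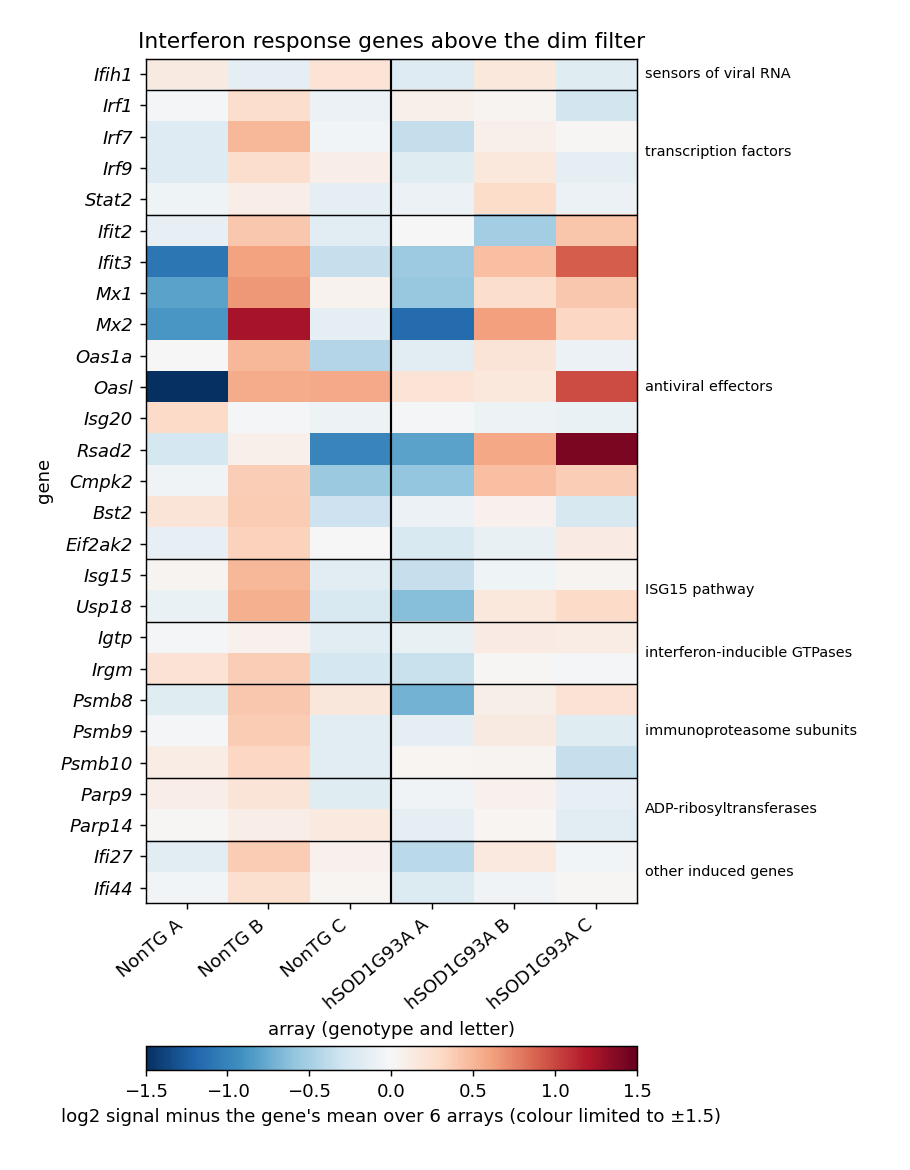
Log2 signal of the 27 members above the dim filter on each array, minus the gene's mean over the 6 arrays (colour, limited to 1.5 either way), in the order of their roles. The NonTG B column is red for most genes, and the widest swings are in the antiviral effectors Mx2, Oasl, Rsad2 and Ifit3.

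**Figure D4:**
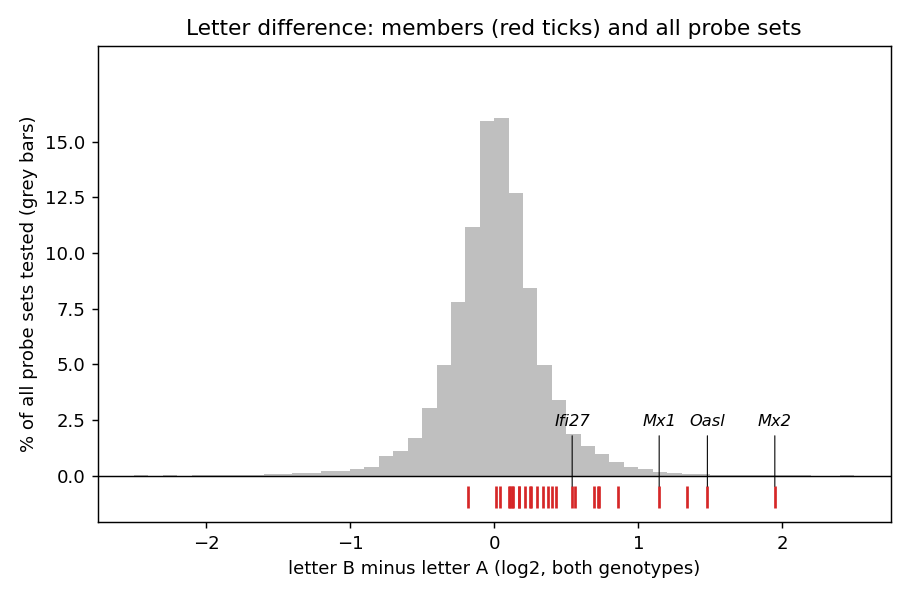
Difference letter B minus letter A (log2) of all 18625 probe sets tested (grey bars, percent of probe sets) and of the 27 members (red ticks); 1 probe set below -2.5 and 3 above 2.5 lie outside the plot. The middle of all probe sets is at 0.011, and 26 of the 27 red ticks lie to the right of 0.

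The sensor measured above the filter was Ifih1, which encodes MDA5, a helicase that binds double-stranded RNA. Its signals were 141, 116 and 147 in NonTG A, B and C and 111, 142 and 113 in hSOD1G93A A, B and C, the order used from here on. Its high arrays were A and C in NonTG and B in hSOD1G93A, so it followed neither genotype (-0.14, SE 0.22) nor letter (adjusted p = 0.99, limma).

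The transcription factors that carry the interferon signal were above the filter, except Irf8. Irf7, which amplifies type I interferon production, had signals of 560.0, 906 and 627 in NonTG and 504, 679 and 648 in hSOD1G93A. Irf9, the DNA-binding part of its complex with Stat2, had 622, 853 and 763 in NonTG and 626, 794 and 639 in hSOD1G93A. By these probe sets A was the lowest and B the highest array of each genotype for both genes. B minus A was 0.56 (SE 0.15) for Irf7 and 0.40 for Irf9, and neither passed the letter test (adjusted p = 0.19 and 0.28, limma). The second Irf9 probe set read 393, 566 and 389.8 in NonTG and 309.9, 427 and 419 in hSOD1G93A. There B was again the highest of both genotypes, but C was the lowest in NonTG. Stat2, the partner of Irf9, had 667, 745 and 632 in NonTG and 657, 841 and 653 in hSOD1G93A. Irf1, induced mainly by interferon gamma, had 548, 669 and 522 in NonTG and 587, 574 and 460.1 in hSOD1G93A. On the brightest probe sets the B array was the highest for Stat2 in both genotypes and for Irf1 in NonTG. The genotypes overlapped for all 4 factors, with differences between -0.17 (Irf7) and 0.067 (Stat2). The second Stat2 probe set read 296, 284 and 302 in NonTG and 207, 276 and 307 in hSOD1G93A. There C was the highest array of both genotypes, B was the lowest in NonTG, and the genotypes differed by -0.18. Irf8, a factor of the myeloid lineage, was below the filter at 7.73 to 65.8.

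Mx2 encodes a dynamin-like GTPase that blocks viral replication, and had the largest difference between letters A and B among the 27 members above the filter. Its signals were 382, 1658 and 639 in NonTG and 314, 1077 and 872 in hSOD1G93A. The A arrays were the lowest and the B arrays the highest in both genotypes. B was 4.34-fold above A in NonTG and 3.43-fold in hSOD1G93A, a log2 difference of 1.95 (SE 0.22) with an adjusted p of 0.011 for the letters (limma). The second Mx2 probe set read 277, 451 and 141 in NonTG and 212, 509.8 and 349 in hSOD1G93A. B was again the highest of both genotypes, but C was the lowest in NonTG, and this probe set did not pass (adjusted p = 0.21). With the mean over both probe sets the adjusted p for Mx2 was 0.078. Between genotypes Mx2 differed by -0.15, with a 95% confidence interval from -1.40 to 1.10, and the genotypes overlapped.

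Mx1, the related GTPase, had signals of 122, 334 and 221 in NonTG and 144, 256 and 282 in hSOD1G93A. Its A arrays were the lowest of each genotype, and B was above A by 1.14 (SE 0.24), but it did not pass (adjusted p = 0.087, limma). Ifit3, a member of the family that binds foreign RNA and blocks its translation, had 32.1, 103 and 53.2 in NonTG and 46.6, 92.5 and 127 in hSOD1G93A. Ifit2, of the same family, had 302, 438 and 294 in NonTG and 327, 230.3 and 439.8 in hSOD1G93A. For Ifit3 the A arrays were again lowest, while Ifit2 was highest on B in NonTG and lowest on B in hSOD1G93A. The second Ifit2 probe set read 192, 264 and 281 in NonTG and 223, 212 and 316 in hSOD1G93A. It was highest on C in both genotypes, and again lowest on B in hSOD1G93A. Ifit1 was below the filter at 10.8 to 89.9.

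The oligoadenylate synthetases make the messenger that activates RNase L. Oas1a had 129, 181 and 94.6 in NonTG and 113, 147 and 120.3 in hSOD1G93A, highest on B in both genotypes. Oasl, a family member with ubiquitin-like domains, had 13.9, 112 and 113 in NonTG and 87.7, 84.7 and 149.8 in hSOD1G93A. Its difference between genotypes was the largest of the members, 0.89 (SE 0.73, 95% confidence interval -0.76 to 2.54). It rested on array NonTG A, without which it was -0.12. Oas1b was just below the filter at 31.1 to 92.4, while Ifit3 and Oasl, with arrays at 32.1 and 13.9, were just above it.

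Rsad2, or viperin, makes a chain-terminating nucleotide from CTP, and Cmpk2 is its genomic neighbour and a nucleotide kinase. Rsad2 had signals of 151, 191 and 91.9 in NonTG and 104, 271 and 483 in hSOD1G93A. Cmpk2 had 366, 489 and 257 in NonTG and 253, 519.9 and 491 in hSOD1G93A. On these probe sets array C was the lowest of both genes in NonTG, and in hSOD1G93A array A was the lowest. The genotypes differed by 0.79 for Rsad2 (SE 0.50, 95% confidence interval -0.34 to 1.91) and by 0.16 for Cmpk2 (SE 0.31), with arrays that overlapped. The second Cmpk2 probe set read 157, 262 and 159 in NonTG and 136, 230.2 and 207 in hSOD1G93A. There A was the lowest array of both genotypes, and the genotypes differed by -0.0041. The value for Rsad2 was 0.28 without array hSOD1G93A C and 1.39 without hSOD1G93A A.

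Bst2, or tetherin, holds budding virus at the cell surface, and had signals of 499.7, 568 and 352 in NonTG and 409, 456 and 368 in hSOD1G93A. Eif2ak2, or PKR, stops translation when it binds double-stranded RNA, and had 712, 989.7 and 781 in NonTG and 661, 719 and 844 in hSOD1G93A. Isg20, an RNA exonuclease, had 119, 96.8 and 92.9 in NonTG and 97.0, 93.0 and 91.6 in hSOD1G93A. Bst2 was highest on B in both genotypes and Eif2ak2 in NonTG, whereas Isg20 was highest on A in both. None of these 3 genes differed between genotypes beyond the spread of its arrays.

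Isg15 encodes a ubiquitin-like protein that is joined to other proteins, and Usp18 removes it and also restrains the type I receptor. Isg15 had signals of 831, 1135 and 713 in NonTG and 631, 771 and 829 in hSOD1G93A, a difference of -0.25 (SE 0.18). Usp18 had 213, 332 and 195 in NonTG and 146, 256 and 278 in hSOD1G93A, a difference of -0.13 (SE 0.29). Both genes were highest on B in NonTG and on C in hSOD1G93A, and both were below NonTG in hSOD1G93A on letters A and B and above it on C. Herc6, of a family that holds an Isg15 ligase, was below the filter at 3.26 to 51.3.

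Igtp and Irgm are GTPases of the immunity-related family that act on vacuoles holding pathogens. Igtp had signals of 448, 480.2 and 408 in NonTG and 424, 499 and 494 in hSOD1G93A. Irgm had 561, 626 and 404 in NonTG and 384, 488 and 479 in hSOD1G93A. Both were highest on B in each genotype, by a small margin over C in hSOD1G93A, and the genotypes overlapped (0.084 and -0.22).

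The immunoproteasome subunits Psmb8, Psmb9 and Psmb10 replace the constitutive catalytic subunits of the proteasome and shape the peptides shown on MHC class I. Psmb8 had signals of 268, 404 and 342 in NonTG and 186, 325 and 355 in hSOD1G93A. Psmb9 had 898, 1176 and 804 in NonTG and 817, 995 and 799 in hSOD1G93A. Psmb10 had 799, 918 and 658 in NonTG and 752, 760.0 and 582 in hSOD1G93A. B was the highest array of both genotypes for Psmb9 and Psmb10, and A the lowest of both for Psmb8. All 3 had an unadjusted letter p under 0.05 and none passed after adjustment (adjusted p from 0.17 to 0.21, limma).

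Parp9 and Parp14 encode ADP-ribosyltransferases that act on the interferon response. Parp9 had signals of 965, 1022 and 793 in NonTG and 864, 940.3 and 820.5 in hSOD1G93A. Parp14 had 420.4, 446 and 462 in NonTG and 381, 424 and 373 in hSOD1G93A. Array B of hSOD1G93A was the only overlap of the genotypes in Parp14, whose difference was -0.18 (SE 0.12). Its second probe set read 199, 193 and 203 in NonTG and 161, 165 and 173 in hSOD1G93A, where the genotypes did not overlap, with a difference of -0.25 that did not pass.

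Ifi27, a small mitochondrial and nuclear envelope protein, was the other member that differed between the letters. Its signals were 7151, 10346 and 8299 in NonTG and 6024, 8817 and 7750.2 in hSOD1G93A. A was the lowest and B the highest array in each genotype. B was 1.45-fold above A in NonTG and 1.46-fold in hSOD1G93A, a log2 difference of 0.54 (SE 0.071) with an adjusted p of 0.022 for the letters (limma), which was 0.061 with no dim filter. Within each letter the hSOD1G93A array was below the NonTG array, with differences of -0.25, -0.23 and -0.10 for A, B and C. With the letter as a block Ifi27 was the 1 member with an unadjusted p under 0.05 between genotypes (0.0087), where 5.85% of all probe sets had one, and it did not pass after adjustment (adjusted p = 0.83, limma). Ifi44, a cytoplasmic protein induced by type I interferon, had 307, 372 and 322 in NonTG and 273, 304 and 318 in hSOD1G93A. Ifi44l, its relative, was below the filter at 22.1 to 77.8.

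**Figure D5:**
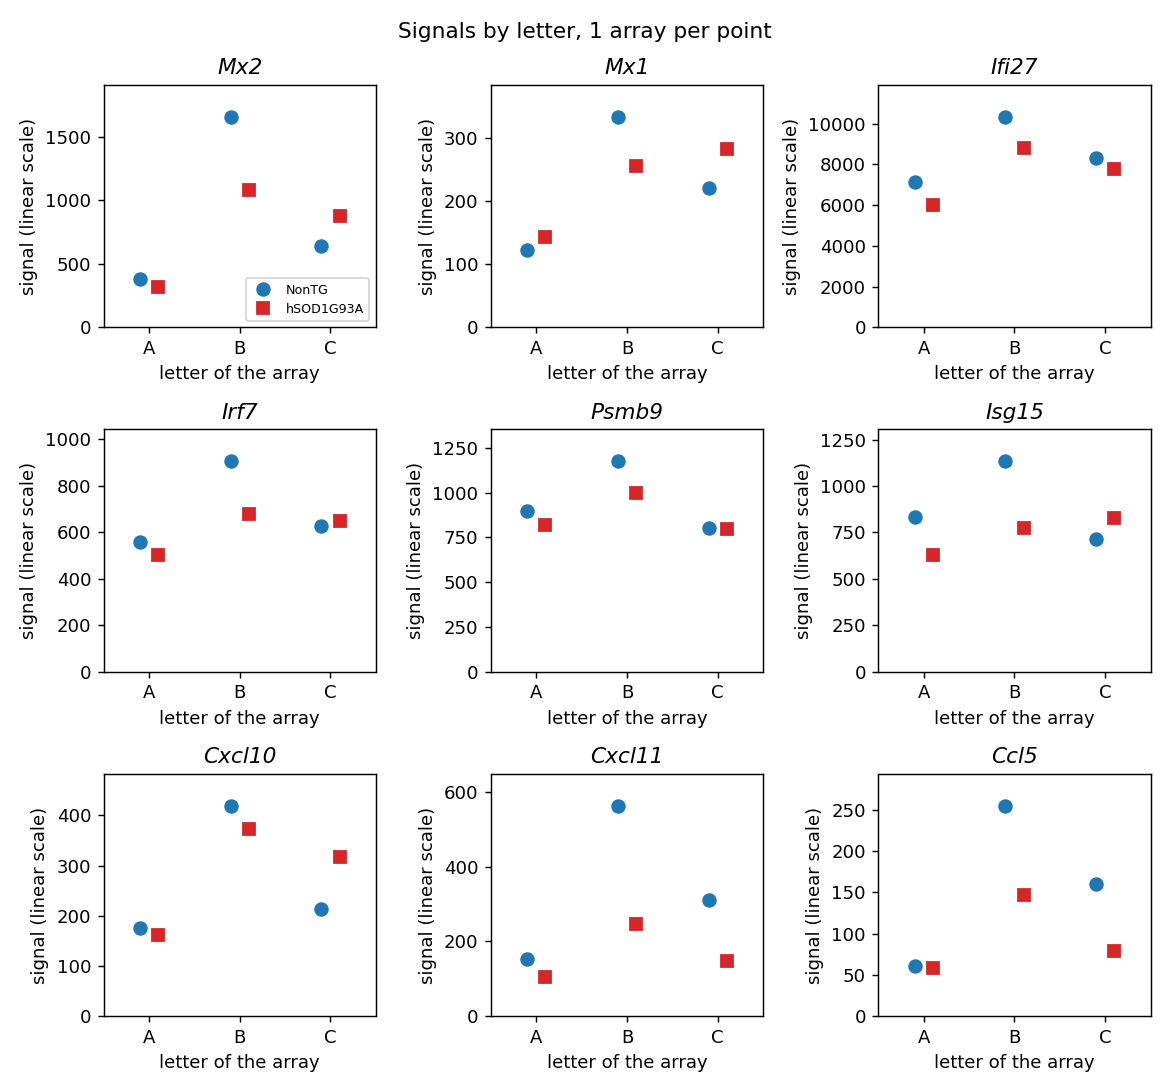
Signal (linear scale, from 0) on each array by letter for 6 members and the interferon-induced chemokines Cxcl10, Cxcl11 and Ccl5; blue circles are NonTG and red squares hSOD1G93A. Mx2, Mx1, Ifi27, Irf7 and the 3 chemokines are lowest on A in both genotypes, while Isg15 is lowest on C in NonTG, at 713.

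Genes of the same pathway that are not on the list of 35 were read the same way, and the filter kept 65 of the 86 that have a probe set. Of 11 genes listed as interferons only 3 were matched, Ifnb1, Ifng and Ifnk. The rest, the Ifna genes among them, were not measured here. The 3 matched genes were all below the filter, at 2.31 to 32.2, 2.07 to 12.7 and 5.23 to 18.5. Of the receptors and kinases 8 of 9 were above it, namely Ifnar1, Ifnar2, Ifngr1, Ifngr2, Il10rb, Jak1, Jak2 and Tyk2, whereas Ifnlr1, of the receptor for type III interferon, was not. Between genotypes 0 of the 65 passed (limma), and 2 had an unadjusted p under 0.05, against 2.54% of all probe sets. The difference was above 0 for 13 and below 0 for 52, where 48% of all probe sets were below 0, and its median was -0.048. In the fit blocked on the letter 0 passed, and 7 had an unadjusted p under 0.05, against 5.85% of all probe sets: Cxcl11, Rtp4, Ifitm2, Tapbp, Dhx58, Sp110 and Ccl5. Cxcl11 had the smallest of these, 0.00056 (adjusted p = 0.65, limma), with differences of -0.55, -1.19 and -1.08 within A, B and C. Without the block, those with the smallest p were Rtp4, a chaperone of receptors, at -0.56 (SE 0.21), the nuclear body protein Sp110 at -0.26 (SE 0.11), the peptide transporter Tap1 at -0.29 (SE 0.13), the ADP-ribosyltransferase Parp12 at -0.23 (SE 0.11) and Cxcl11 at -0.94 (SE 0.46).

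Between the letters 1 of the 65 pathway genes passed (0 with no filter) and 19 had an unadjusted p under 0.05, against 1.05% and 15.6% of all probe sets. The gene that passed was Cxcl11, a chemokine that binds Cxcr3, with signals of 153, 563 and 311 in NonTG and 104, 247 and 148 in hSOD1G93A (adjusted p = 0.032, limma). Cxcl10, of the same receptor, had 175, 419 and 213 in NonTG and 162, 372 and 317 in hSOD1G93A. Ccl5, a chemokine of T cells and monocytes, had 61.2, 255 and 160 in NonTG and 57.8, 147 and 78.7 in hSOD1G93A. All 3 were lowest on A and highest on B in both genotypes, as Mx2 and Ifi27 were. Next to Cxcl11 by p were Tapbp, which loads peptides on MHC class I (B minus A 1.02, adjusted p = 0.056), the membrane antiviral protein Ifitm3 (0.35, adjusted p = 0.070), Cxcl10 (1.23, adjusted p = 0.072) and Ccl5 (1.70, adjusted p = 0.087). The median B minus A over the 65 genes was 0.15.

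Summed signals of some cell type markers also differed between the letters. The sums are a description with no test, and their part in the result was not tested. Of the microglia and macrophage markers 5 of 23 probe sets were above the filter, and their summed signal was 1251 and 1377 on the A arrays, 1229 and 1250.2 on B and 1315 and 1277 on C. Tmem119 ran the other way from the members, at 546 and 643 on A, 234 and 180 on B and 442 and 377 on C (adjusted p = 0.015 for the letters, limma). Without that gene, a sum that was not planned, 4 of 22 were above the filter. This sum was 705 and 735 on A, 995 and 1070.5 on B and 873 and 901 on C. It had the order of Mx2 and Ifi27, but only because the gene that ran the other way was taken out, and the full sum did not have that order. The markers left in it did not all have that order either, C1qa being an exception. Of the 4 probe sets above the filter, Lyz2, a lysozyme of macrophages, was at 53.4 and 47.7 on A, 118 and 131 on B and 109.6 and 83.1 on C. Fcer1g was at 59.9 and 81.2 on A, 96.6 and 95.7 on B and 95.7 and 96.0 on C. The Laptm5 probe sets differed, and 1 was at 118 and 97.2 on A, 157 and 124 on B and 154 and 161 on C. The other was at 102 and 63.0 on A, 98.2 and 124 on B and 33.6 and 87.9 on C. Itgam, Trem2, P2ry12 and C1qa were below the filter. None of the 13 lymphocyte and dendritic cell probe sets was above it, and their sum was 105 and 122 on A, 181 and 257 on B and 301 and 323 on C. Astrocyte markers, 14 of 17 above the filter, summed to 120572 and 112927 on A, 135261 and 138469 on B and 121092 and 131714 on C. Neuron markers, 10 of 16 above the filter, had no order of letters shared by the genotypes. They summed to 6149 and 6528 on A, 6333 and 6485 on B and 6186 and 6979 on C. Fibroblast and meningeal markers, 12 of 12 above the filter, summed to 104775 and 104483 on A, 101122 and 78495 on B and 101591 and 93868 on C. Pericyte and smooth muscle markers, 8 of 13 above it, summed to 27735 and 29769 on A, 23930.5 and 17831 on B and 30034 and 25475.5 on C. Among these the collagen gene Col3a1 (B minus A -0.66, adjusted p = 0.042), the fibronectin gene Fn1 (-0.51, adjusted p = 0.031) and the pericyte marker Rgs5 (-2.10, adjusted p = 0.043) passed the letter test (limma). So did 2 of the 3 probe sets for Mbp, of myelin basic protein, which were lowest on C in both genotypes (adjusted p = 0.019 and 0.016). In cultures of this kind fewer cells of a type and less RNA per cell cannot be told apart. The ratios of 3′ to 5′ probe sets were 0.954 to 1.01 for Gapdh and 1.10 to 1.19 for actin, and were 0.954 and 1.19 on NonTG B.

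Members followed the median profile of the list to different degrees over the 6 arrays, which share the letters. Pearson's r with that profile was 0.94 for Irf7, 0.92 for Oas1a, 0.92 for Psmb9 and 0.91 for Isg15, and it was -0.16 for Ifih1 and -0.12 for Isg20. The genes outside the interferon lists with the most similar profiles were Actr2 (r = 0.99), Man1a1 (0.99), Psmb7 (0.99), Zbtb8a (0.98) and Zfp316 (0.98), given as a description. Members with an ISRE match had a median B minus A of 0.23 (14 tested members) and those with an entry but no match 0.40 (9 tested members). Their ranges, -0.18 to 1.34 and 0.10 to 1.48, overlapped.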

How the data were processed

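Expression was measured on 6 arrays. The authors deposited a linear intensity for each probe set on each array; the submitters' processing notes name MAS5 and GCOS 1.4. The design text speaks of GC-RMA and log values, which these are not. Array medians were 128.85 to 136.28 and trimmed means 500.16 to 500.17. Of 31099 probe sets, 57 controls were left out; 20826 had 1 symbol in the platform annotation, 436 several and 9780 none. Log2 was taken with no pseudocount or further normalization, and probe sets at or below the 40th percentile of mean log2 (signal 66.7) were dropped. limma 3.58.1 in R 4.3.3 (lmFit, eBayes with trend) tested genotype on 4 and letters on 2 residual degrees of freedom, with Benjamini-Hochberg adjustment at 0.05. The scripts were tested on simulated data. The number of arrays limits the precision; 3 against 3 arrays cannot give an exact permutation p below 0.1. Same-letter arrays deviated together (correlations 0.30, 0.25 and 0.20 for A, B and C, and from -0.28 to 0.025 between letters). Deviations were taken from the mean of the 3 arrays of a genotype, so these correlations are not independent of each other. The letters, taken from the titles, may thus pair the arrays, while the main genotype test and its intervals leave the letter out. Alternatives were quantile normalization, a pseudocount of 16, no filter, a filter at the 60th percentile, the letter as a replicate block, the mean over probe sets of a gene, and leaving out each array. Every member above the filter is given on each array, the others by their range; the pathway genes named are the 5 with the smallest p for genotype and for letters, and genes by likeness the 5 with the highest r. The members and lists were chosen with earlier results of these data known. Promoters are from RefSeq (GRCr8).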

Additional observations from a re-analysis of the deposited data

How the results depend on the processing

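Between genotypes, calls stayed at 0 probe sets, 0 members and 0 pathway genes under all 12 alternatives that gave them. The letters may pair the arrays, and with the letter as a replicate block 0 members passed and their median difference was -0.13. The smallest adjusted p of a member was 0.83 with the block and from 0.76 upward over the alternatives (limma). Leaving out each array gave medians from -0.18 to 0.0064. Of 316 member differences recomputed, 0 moved by more than the spread between replicates and 22 changed sign. That count of 0 was largely fixed in advance and does not show stability. A change of filter or the letter block leaves each member's difference as it was. When an array is left out, its genotype's mean shifts by less than the standard deviation of that genotype's arrays. Only quantile normalization, the pseudocount and, for genes with several probe sets, the mean over probe sets could have moved a difference that far. Of the 27 members, 15 kept their sign throughout. Between letters, 195 probe sets passed; this was 110 with no filter and 341 to 1009 when each array was left out, on 1 degree of freedom fewer. Members passing were 2, with 1 under no filter (Ifi27 lost), 1 with the mean over probe sets (Mx2 lost) and 2 to 7 leaving out each array (7 without NonTG C, 6 without hSOD1G93A C). Pathway genes passing, an alternative count added after seeing the data, were 1, with 0 under no filter and 1 to 9 leaving out each array. The cause of these changes was not tested. No filter tests all 31042 probe sets. Signals near or below the filter limit what can be said of the 5 dim members.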
